A study of Mus musculus with 18 samples.

Results

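The genes described here encode Hox cofactors of the PBX, MEIS and PREP subfamilies. They were listed by symbol, as Pbx2, Pbx3, Pbx4, Meis1, Meis2, Meis3, Pknox1 and Pknox2, and the rule for membership uses no measured value, although the list was drawn up with earlier results of these data known. All 8 were found among the 27179 genes of the deposited RNA-seq count tables, which hold 18 libraries from embryoid bodies of mouse embryonic stem cells, 3 in each of 6 groups. Every culture received 1 µM retinoic acid (RA) and 0.5 µM smoothened agonist (SAG), signals that direct the cells to a cervical spinal cord fate. Day 2 progenitors came from the line Ainv15(iCre), which carries no Hox transgene. Control neurons came from Ainv15(iFlag.Hoxc6) on day 4 without doxycycline (Dox). The iHoxc6, iHoxc8, iHoxc9 and iHoxc10 neurons came on day 4 from Ainv15(iFlag.Hoxc6), Ainv15(iFlag.Hoxc8), Ainv15(iFlag.Hoxc9) and Ainv15(iFlag.Hoxc10), each given 3 µg/ml Dox for 48 h from day 2. Dox switched on a single copy of 1 N-terminally Flag-tagged Hox transgene at the Hprt locus, so each line models forced expression of 1 Hox gene and not the Hox code of a spinal segment. The day 4 cultures were mixtures of motor neurons with interneurons and other cells.

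Hox proteins bind DNA through closely similar homeodomains, and their partners of the TALE class of homeodomain proteins add to the specificity of binding. PBX proteins bind Hox proteins directly and form joint complexes with them on composite sites. MEIS and PREP proteins (PREP proteins are the products of Pknox1 and Pknox2) bind PBX, hold it in the nucleus and can join the same complexes. In the spinal cord, motor neurons use Hox proteins together with PBX proteins to become arranged in columns and pools.

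Total counts per library ranged from 24498630 to 33168533, and a floor of 3 counts corresponded to 0.0883 to 0.122 CPM (read counts scaled to the TMM-normalized library size). This floor allows for counting error alone. The 8 genes had between 85 counts (the lowest value of Pbx4) and 10608 counts (the highest of Meis2) per library, so all 8 were measured in every library and all 8 passed the filter on low counts. The induced genes were as labeled. Hoxc6 had a mean of 514 CPM in iHoxc6 neurons, Hoxc8 389 CPM in iHoxc8 neurons, Hoxc9 224 CPM in iHoxc9 neurons and Hoxc10 430 CPM in iHoxc10 neurons, and Hoxc6 also had 47.3 CPM in iHoxc10 neurons. The 7 motor neuron markers summed to between 19.1 and 45.0 CPM on day 2 and to between 298 and 571 CPM over the day 4 libraries, and the 5 pan-neuronal markers to between 278 and 570 CPM and between 5366 and 7918 CPM. The 4 pluripotency markers summed to at most 5.15 CPM on day 2 and 1.00 CPM on day 4, and Nanog had 0 counts in all libraries of 4 groups. The 7 mesoderm and endoderm markers summed to between 9.29 and 10.2 CPM on day 2, with Gata6 at a mean of 5.03 CPM, and to between 0.711 and 3.15 CPM on day 4, with Gata6 at 2.15 CPM in iHoxc9 neurons and Afp at 0 counts in all 4 induced lines. The 4 glial markers summed to between 17.0 and 28.8 CPM on day 2 and between 79.4 and 157 CPM on day 4. Most of this was Mbp (20.3 CPM on day 2, 83.2 to 143 CPM on day 4), while the astrocyte gene Gfap had 0 counts in 3 groups. The library names carry 4 prefixes. Control and iHoxc6 neurons shared a prefix, as did iHoxc9 and iHoxc10 neurons, while day 2 progenitors and iHoxc8 neurons had a prefix each. In comparisons across prefixes, the prefix, the line and the condition cannot be told apart. In bulk RNA, a lower level can come from fewer cells that express a gene or from less RNA per cell, and these cannot be told apart either.

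The quasi-likelihood test of edgeR was run over 20944 genes with the 18 libraries in 1 model, and a gene passed at an adjusted p (Benjamini-Hochberg) under 0.01. Fold changes are on the log2 scale with their standard errors (SE), and levels are means ± SD over 3 libraries in CPM.

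The level of 7 of the 8 genes differed between day 2 progenitors and control neurons. Pbx3, Pbx4, Meis1, Meis2, Meis3 and Pknox1 rose, Pbx2 fell, and Pknox2 did not pass. Of all genes tested, 42.4% passed in this comparison, so a change over these 2 days was common. The median log2 fold change of the 8 genes was 0.77, and over all genes it was 0.00. With the fold threshold of the study added (a change by more than 2 on the log2 scale, up or down), 1 of the 8 genes, Meis3, passed, beside 12.6% of all genes.

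Meis3 (chr7:16174012-16186510, plus strand, GRCm38), known for its part in hindbrain patterning, had the largest change of the 8. It had 30.7, 36.2 and 27.9 CPM in the day 2 libraries and 214, 214 and 263 CPM in control neurons. Every control library was above every day 2 library. The level rose by 2.87 ± 0.15 (edgeR, adjusted p = 3.1e-13), or 7.29-fold. Pbx3 (chr2:34171457-34372045, minus strand), which mice need for central control of breathing, had 38.7, 37.6 and 32.0 CPM on day 2 and 168, 140 and 119 CPM in control neurons. It rose by 1.98 ± 0.14 (edgeR, adjusted p = 8.8e-11), or 3.94-fold, and again the groups did not overlap.

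The other genes that rose did so by 1.42- to 2.18-fold. Meis1 (chr11:18880428-19019651, minus strand), a cofactor also known from limb and blood development, had 84.9, 73.4 and 80.7 CPM on day 2 and 197, 172 and 152 CPM in control neurons (log2 fold change 1.12 ± 0.12, edgeR adjusted p = 5.1e-08). Meis2 (chr2:115861264-116067537, minus strand), which has roles in limb, neural crest and forebrain, had 117, 92.3 and 99.0 CPM on day 2 and 186, 214 and 164 CPM in control neurons (0.87 ± 0.15, edgeR adjusted p = 2.5e-05). Pknox1 (chr17:31564722-31607693, plus strand), which encodes PREP1 and is needed for embryonic development, rose from 27.8 ± 1.5 to 39.5 ± 4.2 CPM (0.51 ± 0.11, edgeR adjusted p = 0.00071). Pbx4 (chr8:69832476-69872292, plus strand), best known from testis, was the gene with the fewest counts and rose from 3.43 ± 0.58 to 5.50 ± 0.77 CPM (0.68 ± 0.17, edgeR adjusted p = 0.0022).

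Pbx2 (chr17:34592259-34597400, plus strand), a widely expressed PBX gene, was the 1 gene that fell. It had 206, 208 and 234 CPM in day 2 progenitors and 141, 161 and 158 CPM in control neurons (-0.49 ± 0.11, edgeR adjusted p = 0.00072), with every day 2 library above every control library. Pknox2 (chr9:36890979-37147342, minus strand), which encodes PREP2, had 54.3, 53.4 and 90.5 CPM on day 2 and 39.8, 63.1 and 38.7 CPM in control neurons. Control replicate 2 lay within the range of the day 2 libraries, and day 2 replicate 3 was above all others. The difference did not pass (-0.49 ± 0.18, edgeR adjusted p = 0.030), and it passed without control replicate 2 (adjusted p = 0.00099) or day 2 replicate 2 (0.0098). In a fit of only the groups compared, 4 of the 8 genes passed, and Pbx2, Pbx4 and Pknox1 had adjusted p values of 0.054, 0.040 and 0.027. Pbx4 also missed the threshold without control replicate 3 (0.011), day 2 replicate 1 (0.022) or day 2 replicate 2 (0.012). The line and the library-name prefix differ between these groups as well as the day.

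**Figure D1:**
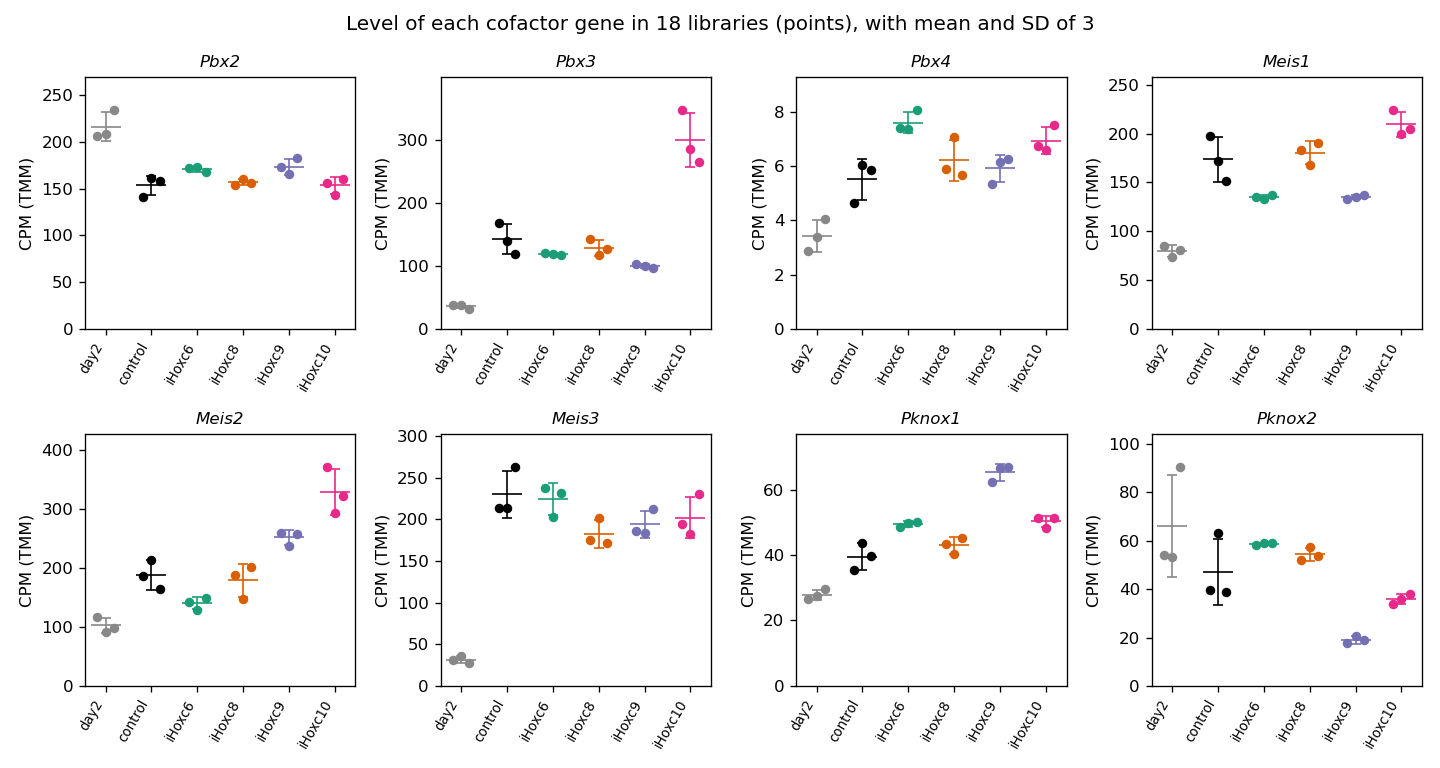
Level of each of the 8 cofactor genes (y axis, TMM-normalized CPM, linear from 0, with a scale of its own in each panel) in the 6 groups (x axis). Points are libraries, and horizontal marks with bars are the mean and SD of 3. Meis3 and Pbx3 were lowest in day 2 progenitors, Pbx3 and Meis2 reached 299 and 329 CPM in iHoxc10 neurons, and Pknox2 had 19.1 CPM in iHoxc9 neurons.

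Most of the 8 genes also differed from day 2 progenitors in the induced neurons. These comparisons share the day 2 libraries with each other and with the comparison above. Of the 8 genes, 5 passed in iHoxc6 neurons (5 higher, beside 46.6% of all genes), 7 in iHoxc8 neurons (6 higher, 1 lower, beside 44.6%), 7 in iHoxc9 neurons (6 higher, 1 lower, beside 46.7%) and 8 in iHoxc10 neurons (6 higher, 2 lower, beside 50.2%). Pbx3, Pbx4, Meis1, Meis3 and Pknox1 were higher than on day 2 in all 4 lines. Meis3 was 5.79- to 7.11-fold higher in the 4 lines. Pbx3 ranged more widely, from 2.76-fold in iHoxc9 neurons to 8.28-fold in iHoxc10 neurons (log2 fold change 3.05 ± 0.15, edgeR adjusted p = 6.4e-14). Pbx2 was lower in iHoxc8 and iHoxc10 neurons. In iHoxc6 and iHoxc9 neurons it differed by -0.34 ± 0.11 and -0.32 ± 0.11 and just missed the threshold (edgeR, adjusted p = 0.013 and 0.020), but it passed with DESeq2 (2.1e-06 and 1.3e-05), and every day 2 library was above every library of the 4 lines. Meis2 in iHoxc6 neurons (0.45 ± 0.14, adjusted p = 0.011) likewise passed without the filter on low counts (0.0079). Pknox2 was lower in iHoxc9 neurons, where the day 2 level was 3.46-fold the iHoxc9 level (edgeR, adjusted p = 3.5e-08), and in iHoxc10 neurons (1.84-fold, adjusted p = 0.00027). In fits of only the groups compared, Pbx2 missed the threshold in iHoxc8 (adjusted p = 0.023) and iHoxc10 neurons (0.017), and Pbx4 in iHoxc9 neurons (0.011).

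**Figure D2:**
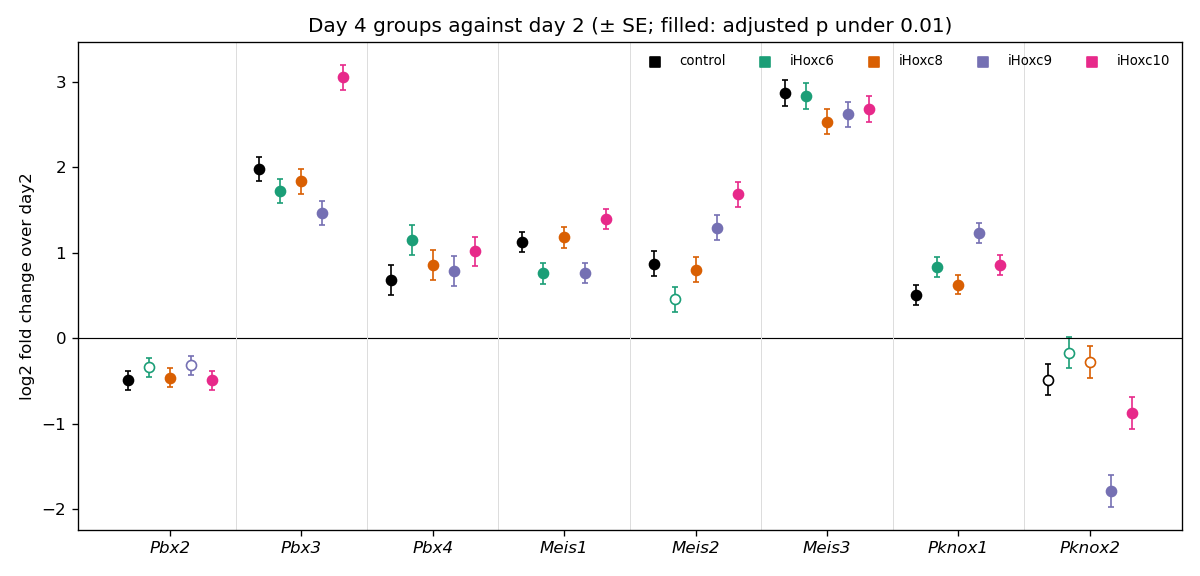
Log2 fold change (y axis; bars are SE) of each cofactor gene (x axis) in the 5 day 4 groups over day 2 progenitors. Filled points have an adjusted p under 0.01 (edgeR) and open points do not. Meis3 lies between 2.53 and 2.87 in all 5 groups, while Pknox2 ranges from -1.79 in iHoxc9 neurons to -0.17 in iHoxc6 neurons.

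To describe the cofactors after induction of a Hox transgene, each induced line was compared with the control neurons, which all 4 comparisons share. Control neurons had no Dox, so an effect of Dox itself cannot be told apart from that of the transgene. In total 5 of 32 differences passed, and they were of 4 genes in 2 lines. None of the 8 genes passed in iHoxc6 neurons (edgeR, beside 0.587% of all genes) or in iHoxc8 neurons (edgeR, beside 2.12%). At an unadjusted p under 0.05 there were 4 and 1, and DESeq2 called 1 gene in iHoxc6 neurons, Meis1 (adjusted p = 0.0025), and 0 in iHoxc8 neurons. In iHoxc9 neurons 3 of 8 passed (1 higher, 2 lower, beside 14.1% of all genes), and in iHoxc10 neurons 2 of 8 (2 higher, beside 14.4%). The share of the 8 genes was above that of all genes in iHoxc9 neurons and near it in iHoxc10 neurons, and with 8 genes each gene is 12.5% of the list. None of the 8 passed the fold threshold of the study as well in any line, beside 0.115%, 0.22%, 2.7% and 1.48% of all genes in iHoxc6, iHoxc8, iHoxc9 and iHoxc10 neurons. The median absolute log2 fold change of the 8 genes was 0.32, 0.13, 0.39 and 0.34 in the 4 lines in this order, and that of all genes 0.30, 0.31, 0.43 and 0.42.

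**Figure D3:**
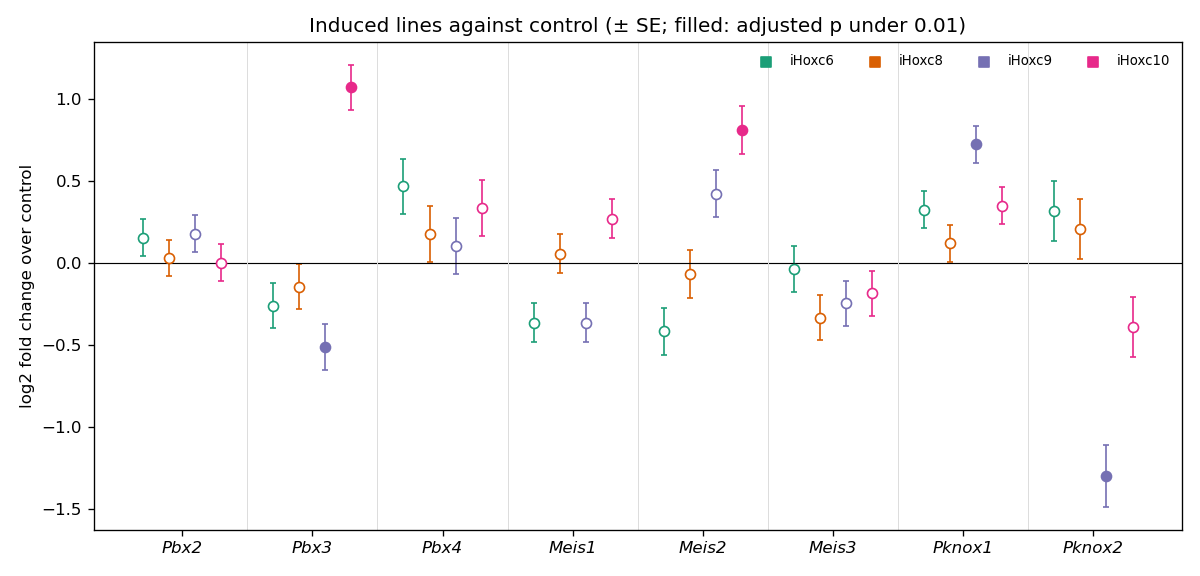
Log2 fold change (y axis; bars are SE) of each cofactor gene (x axis) in the 4 induced lines over control neurons. Filled points have an adjusted p under 0.01 (edgeR) and open points do not. The filled points are Pbx3 and Meis2 in iHoxc10 neurons at 1.07 and 0.81, and Pbx3, Pknox1 and Pknox2 in iHoxc9 neurons at -0.51, 0.72 and -1.30.

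Among the PBX genes, the direct partners of Hox proteins, Pbx3 was the one that differed between day 4 groups. It had 168, 140 and 119 CPM in control neurons, 120, 119 and 118 CPM in iHoxc6 neurons, 142, 117 and 127 CPM in iHoxc8 neurons, 103, 99.9 and 96.1 CPM in iHoxc9 neurons and 347, 286 and 265 CPM in iHoxc10 neurons. The 3 iHoxc10 libraries were above all other libraries, and the 3 iHoxc9 libraries were below all other day 4 libraries. Against control, Pbx3 was 2.10-fold higher in iHoxc10 neurons (log2 fold change 1.07 ± 0.14, edgeR adjusted p = 1.1e-05), and this call held under every other test, filter, scaling and set of libraries. In iHoxc9 neurons it was lower by 0.51 ± 0.14 (edgeR, adjusted p = 0.0089). This value lay close to the threshold. It rose to 0.073 without control replicate 1, the highest control library, to between 0.011 and 0.027 without any 1 of the iHoxc6 or iHoxc9 libraries or without iHoxc10 replicate 2, and to 0.017 in a fit of only the groups compared. In the order of group means, day 2 progenitors at the low end and iHoxc10 neurons at the high end differed from their neighbors, and the steps from iHoxc9 to iHoxc6, iHoxc8 and control neurons did not pass.

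Pbx2 and Pbx4 did not pass in any line against control. Pbx2 had group means between 153 ± 11 CPM in control and 174 ± 8.6 CPM in iHoxc9 neurons on day 4, and its log2 fold changes from control were 0.15 ± 0.11, 0.03 ± 0.11, 0.18 ± 0.11 and 0.00 ± 0.11 in the 4 lines. The interval of 2 SE around these values reached from -0.22 to 0.40. Pbx4 had day 4 means between 5.50 ± 0.77 CPM in control and 7.60 ± 0.40 CPM in iHoxc6 neurons. Its log2 fold changes from control, 0.47 ± 0.17, 0.18 ± 0.17, 0.10 ± 0.17 and 0.33 ± 0.17, were above 0 in all 4 lines, and all 3 iHoxc6 libraries were above all control libraries, but with an adjusted p of 0.12 (edgeR) the iHoxc6 difference did not pass. Exons of Pbx2 overlap 227 bases of Gpsm3 on the same strand, so reads there could belong to either gene.

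The MEIS genes, whose products bind PBX, differed in how far they moved. Meis2 had 186, 214 and 164 CPM in control neurons, 143, 129 and 150 CPM in iHoxc6 neurons, 188, 148 and 202 CPM in iHoxc8 neurons, 260, 238 and 258 CPM in iHoxc9 neurons and 371, 293 and 323 CPM in iHoxc10 neurons. All libraries of iHoxc9 and iHoxc10 neurons were above all libraries of the other groups, and the iHoxc6 range lay under that of control. Against control, Meis2 was 1.75-fold higher in iHoxc10 neurons (0.81 ± 0.15, edgeR adjusted p = 0.00032), which held under every other test, filter, scaling and set of libraries. In iHoxc9 neurons the difference from control was 0.42 ± 0.14 (edgeR, adjusted p = 0.036) and did not pass. In the order of its means, from 103 CPM on day 2 through iHoxc6, iHoxc8, control and iHoxc9 to 329 CPM in iHoxc10 neurons, no step between neighbors passed.

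Meis1 had 197, 172 and 152 CPM in the control libraries. The iHoxc6 libraries had 135, 133 and 137 CPM and the iHoxc8 libraries 184, 168 and 191 CPM. The iHoxc9 libraries had 133, 135 and 137 CPM and the iHoxc10 libraries 224, 200 and 205 CPM. The values of iHoxc6 and iHoxc9 neurons were nearly equal and under all control libraries, and those of iHoxc10 neurons were above them. None of these differences from control passed (edgeR, adjusted p = 0.087, 0.84, 0.030 and 0.11 in the 4 lines in the order above). DESeq2 called Meis1 lower in iHoxc6 (adjusted p = 0.0025) and iHoxc9 neurons (0.00052), and edgeR did so in iHoxc9 neurons without control replicate 3 (0.0096). Meis1 exons overlap 1925 bases of other annotated genes, among them the antisense gene Gm16140, and the strand setting of the counting is not given in the sources used here, so reads there could belong to either gene. Meis3 had day 4 means between 183 ± 17 CPM in iHoxc8 neurons and 230 ± 28 CPM in control. Its log2 fold changes from control were -0.04 ± 0.14, -0.33 ± 0.14, -0.25 ± 0.14 and -0.19 ± 0.14 in the 4 lines, and none passed (edgeR, adjusted p from 0.14 to 0.96), although the libraries of iHoxc8 and of iHoxc9 neurons were all below those of control.

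The PREP genes moved in opposite directions in iHoxc9 neurons. Pknox2 had 39.8, 63.1 and 38.7 CPM in control neurons, 58.4, 58.9 and 58.9 CPM in the iHoxc6 and 52.1, 57.3 and 53.8 CPM in the iHoxc8 libraries. In the iHoxc9 libraries it had 17.6, 20.7 and 18.9 CPM, and in the iHoxc10 libraries 34.0, 35.8 and 38.1 CPM. The iHoxc9 libraries were below every other library, day 2 included. Pknox2 was lower than control by 1.30 ± 0.19 in iHoxc9 neurons (edgeR, adjusted p = 2.6e-05), the largest difference of the 8 genes from control, with a control level 2.47-fold the iHoxc9 level. In iHoxc10 neurons the difference from control was -0.39 ± 0.18 (edgeR, adjusted p = 0.13). Pknox1 had 35.3, 43.6 and 39.7 CPM in control neurons, 48.6, 49.8 and 50.1 CPM in the iHoxc6 and 43.3, 40.2 and 45.3 CPM in the iHoxc8 libraries. In the iHoxc9 libraries it had 62.2, 66.7 and 66.9 CPM, and in the iHoxc10 libraries 51.4, 48.3 and 51.3 CPM. The 3 iHoxc9 libraries were above all others. Pknox1 was 1.65-fold higher in iHoxc9 neurons than in control (0.72 ± 0.11, edgeR adjusted p = 7.4e-05). Both calls held under every other test, filter, scaling and set of libraries. In iHoxc10 neurons Pknox1 was 0.35 ± 0.11 above control (edgeR, adjusted p = 0.029; DESeq2, 0.00039), with no overlap of the libraries. A stretch of 155 bases of Pknox1 exons overlaps an antisense gene.

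Some cell type markers also differed from control in the induced lines, beside 14.1% of all genes in iHoxc9 and 14.4% in iHoxc10 neurons. In iHoxc10 neurons, where Pbx3 and Meis2 were higher, the 7 spinal interneuron markers summed to between 60.2 and 81.5 CPM, beside 16.3 to 20.6 CPM in control, and 1 of the 7 passed, Lhx1, with means of 66.2 and 14.2 CPM. The 5 pan-neuronal markers summed to between 6939 and 7918 CPM in iHoxc10 neurons and between 5366 and 5720 CPM in control, and 2 of 5 passed, both higher. In iHoxc9 neurons, where the PREP genes moved apart, the 7 motor neuron markers summed to between 298 and 324 CPM, beside 544 to 571 CPM in control, and 4 of 7 were lower. The 7 progenitor markers summed to between 538 and 592 CPM in iHoxc9 neurons and between 309 and 651 CPM in control, with 2 higher and 2 lower. In iHoxc10 neurons 2 motor neuron and 3 progenitor markers were lower. Markers also passed in the lines where no cofactor gene did. In iHoxc6 neurons 1 motor neuron and 1 interneuron marker were lower. In iHoxc8 neurons 2 motor neuron markers and 1 interneuron marker were lower, and 1 pan-neuronal and 1 progenitor marker were higher. The part of these differences in the levels of the cofactor genes was not tested.

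The induced lines were also tested against each other. Of the 8 genes, 0 passed between iHoxc8 and iHoxc6 neurons (edgeR, beside 3.55% of all genes; 3 at an unadjusted p under 0.05), although DESeq2 called Meis1 (adjusted p = 0.00038). The numbers were 2 between iHoxc9 and iHoxc6 neurons (beside 11.7%), 4 between iHoxc10 and iHoxc6 neurons (11.0%), 2 between iHoxc9 and iHoxc8 neurons (5.37%), 2 between iHoxc10 and iHoxc8 neurons (2.93%) and 3 between iHoxc10 and iHoxc9 neurons (4.99%). Of the 48 differences, 13 passed, and they were of 5 genes. Pknox2 passed in 4 of the 6 pairs, Pbx3 and Meis2 in 3 each, Meis1 in 2 and Pknox1 in 1, while Pbx2, Pbx4 and Meis3 passed in none. The ratio of the highest to the lowest group mean on day 4, control included, was 3.08 for Pknox2, 3.00 for Pbx3 and 2.34 for Meis2, against 1.65 for Pknox1, 1.55 for Meis1, 1.38 for Pbx4, 1.26 for Meis3 and 1.13 for Pbx2.

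The comparison of iHoxc10 with iHoxc9 neurons, a lumbar and a thoracic Hox gene, lies within a library-name prefix. Pbx3 was 3.00-fold higher in iHoxc10 neurons (1.58 ± 0.14, edgeR adjusted p = 6.9e-08), Meis1 1.55-fold higher (0.63 ± 0.12, adjusted p = 0.0010) and Pknox2 1.88-fold higher (0.91 ± 0.19, adjusted p = 0.0024). Pbx3 and Meis1 held under every other test, filter, scaling and set of libraries, and Pknox2 missed the threshold without iHoxc9 replicate 1 (0.017) or replicate 3 (0.014). Meis2, higher than control in iHoxc10 neurons, was not shown to differ between these lines (0.39 ± 0.14, adjusted p = 0.11), although no libraries overlapped and a fit of only these groups passed (0.0058). Pknox1 differed by -0.37 ± 0.11 (edgeR, adjusted p = 0.041; DESeq2, 0.0034).

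Against the brachial lines, Pbx3 was 2.52-fold higher in iHoxc10 than in iHoxc6 neurons (1.33 ± 0.14, edgeR adjusted p = 1.1e-06) and 2.33-fold higher than in iHoxc8 neurons (1.22 ± 0.14, adjusted p = 4.9e-06). Meis2 was 2.34-fold higher in iHoxc10 than in iHoxc6 neurons (1.23 ± 0.15, edgeR adjusted p = 5.4e-06) and 1.84-fold higher than in iHoxc8 neurons (0.88 ± 0.15, adjusted p = 0.00045). The iHoxc9 neurons also had more Meis2 than iHoxc6 neurons (1.79-fold, edgeR adjusted p = 0.00023). Meis1 was 1.55-fold higher in iHoxc10 than in iHoxc6 neurons (edgeR, adjusted p = 0.00077). For Pknox2, the iHoxc6 level was 3.07-fold and the iHoxc8 level 2.85-fold that of iHoxc9 neurons (edgeR, adjusted p = 1.8e-06 and 5.2e-06). Pknox1 was 1.52-fold higher in iHoxc9 than in iHoxc8 neurons (edgeR, adjusted p = 0.00082). Pknox1 was 0.40 ± 0.11 higher in iHoxc9 than in iHoxc6 neurons with an adjusted p just over the threshold (edgeR, 0.015), and it passed with DESeq2 (6.3e-05) and with the stricter filter on counts (0.0057). Between iHoxc9 and iHoxc8 neurons, Meis1 (-0.42 ± 0.12, edgeR adjusted p = 0.028) and Meis2 (0.49 ± 0.14, 0.035) passed with DESeq2 alone among the settings tried (0.00042 and 0.0056). Pknox2 between iHoxc10 and iHoxc8 neurons (-0.60 ± 0.18, edgeR adjusted p = 0.057) passed in a fit of only these groups (0.0090) and without day 2 replicate 3 (0.0083). DESeq2 called 18 of the 48 differences in all, and the share of all genes that it called is not reported here. The last call, Pknox2 between iHoxc10 and iHoxc6 neurons (-0.71 ± 0.19, edgeR adjusted p = 0.0088), missed the threshold with DESeq2's size factors (0.014), with the stricter filter on counts (0.010), and without any 1 of the iHoxc6, iHoxc9 or iHoxc10 libraries or iHoxc8 replicate 1 (0.010 to 0.048).

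**Figure D4:**
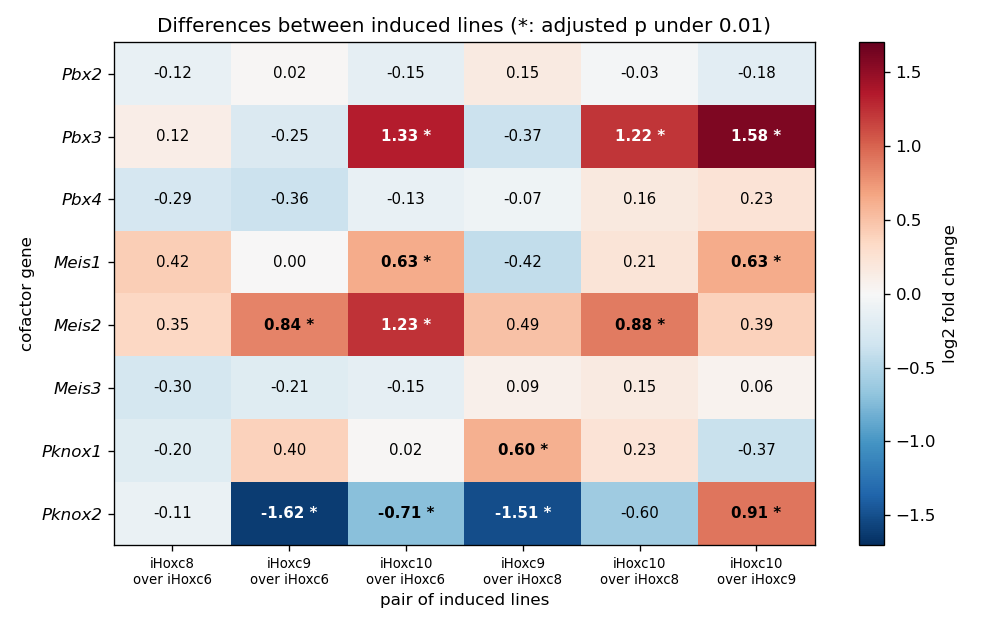
Log2 fold change of the 8 cofactor genes (rows) between pairs of induced lines (columns, the line named on top over the line named under it). Color gives the size and direction, and an asterisk marks an adjusted p under 0.01 (edgeR). Of the 48 cells 13 are marked, and the largest values are 1.58 for Pbx3 in iHoxc10 over iHoxc9 neurons and -1.62 for Pknox2 in iHoxc9 over iHoxc6 neurons.

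To compare levels between genes, CPM was divided by the length of the exons in kilobases (kb), and shares were taken within each subfamily over the genes listed here. Among Pbx2, Pbx3 and Pbx4, which are not the whole PBX subfamily, Pbx2 held 88.8% ± 1.1 (SD, n = 3) of the CPM per kb on day 2, and Pbx3 held 8.91% ± 1.4. Pbx3 held 40.1%, 32.8% and 29.8% in the 3 control libraries, 27.9% ± 0.13, 31.5% ± 2.6 and 24.5% ± 1.4 in iHoxc6, iHoxc8 and iHoxc9 neurons, and 55.2%, 52.4% and 47.7% in the 3 iHoxc10 libraries. In iHoxc10 neurons, with a mean of 51.8%, Pbx3 was near the level of Pbx2 (44.9% ± 3.4). By this measure of length, Pbx2 was the leading gene of the 3 in the other 5 groups. Pbx4 held at most 4.92% ± 0.31, in iHoxc6 neurons. The summed level of the 3 genes lay between 66.7 and 69.8 CPM per kb in 5 groups and was 94.3 ± 7.4 in iHoxc10 neurons. With the longest transcript as length, the sums of the 5 groups were less alike. They ranged from 85.2 ± 4.2 on day 2 to 103 ± 5.6 in control, and the sum was 159 ± 15 in iHoxc10 neurons.

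Within the MEIS genes the shares were close to even on day 2 and led by Meis3 on day 4. On day 2 Meis1 held 29.1% ± 2.2, Meis2 32.7% ± 3.0 and Meis3 38.2% ± 4.9. In control neurons Meis3 held 69.2% ± 4.8, and its share lay between 57.4% ± 3.5 in iHoxc10 and 74.3% ± 1.0 in iHoxc6 neurons over the induced lines. The summed level was 26.1 ± 1.4 CPM per kb on day 2 and between 89.6 ± 1.9 and 111 ± 9.3 on day 4. The share of Meis2 was 15% ± 2.6 in control neurons, 12.3% ± 0.36 and 16.6% ± 2.9 in iHoxc6 and iHoxc8 neurons, and 22.1% ± 1.1 and 24.6% ± 2.3 in iHoxc9 and iHoxc10 neurons, and the libraries of iHoxc9 and iHoxc10 neurons were above those of control.

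Within the PREP genes Pknox2 held 60.6% ± 5.8 on day 2, while Pknox1 held 56.1% ± 4.9 in control, 55.7% ± 0.29 and 54.0% ± 2.5 in iHoxc6 and iHoxc8, and 83.6% ± 0.75 and 67.6% ± 1.4 in iHoxc9 and iHoxc10 neurons. Across these shifts the summed level stayed between 10.3 ± 1.9 and 12.8 ± 0.15 CPM per kb. The shares of Pbx3, Meis2 and Pknox1 were compared in 6 pairs of groups each, 18 comparisons in all. Of these 12 had no overlap between libraries and gave p = 0.10 in a two-sided exact permutation test, the smallest value that 3 against 3 libraries can give, so no difference of a share could pass, before or after adjustment over the 18 comparisons. The other 6 were iHoxc8 against control for all 3 genes (exact p = 0.60, 0.50 and 0.50 for Pbx3, Meis2 and Pknox1), iHoxc6 against control for Meis2 (exact p = 0.30) and Pknox1 (exact p = 0.90), and iHoxc10 against iHoxc9 for Meis2 (exact p = 0.20). Shares and sums depend on the length used. With the longest transcript in place of all exons, Pbx3 held 48.0% in control, level with Pbx2 (48.5% ± 5.2). In iHoxc10 neurons Pbx3 held 65.6% and Pbx2 31.6% ± 3.1. Pknox1 held 42.3% in control and 74.5% in iHoxc9 neurons. Pknox2 then led on day 2 and in control, iHoxc6 and iHoxc8 neurons, and Pknox1 in iHoxc9 and iHoxc10 neurons alone. The PREP sums then lay between 20.6 ± 1.0 in iHoxc9 and 27.8 ± 0.27 in iHoxc6 neurons.

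**Figure D5:**
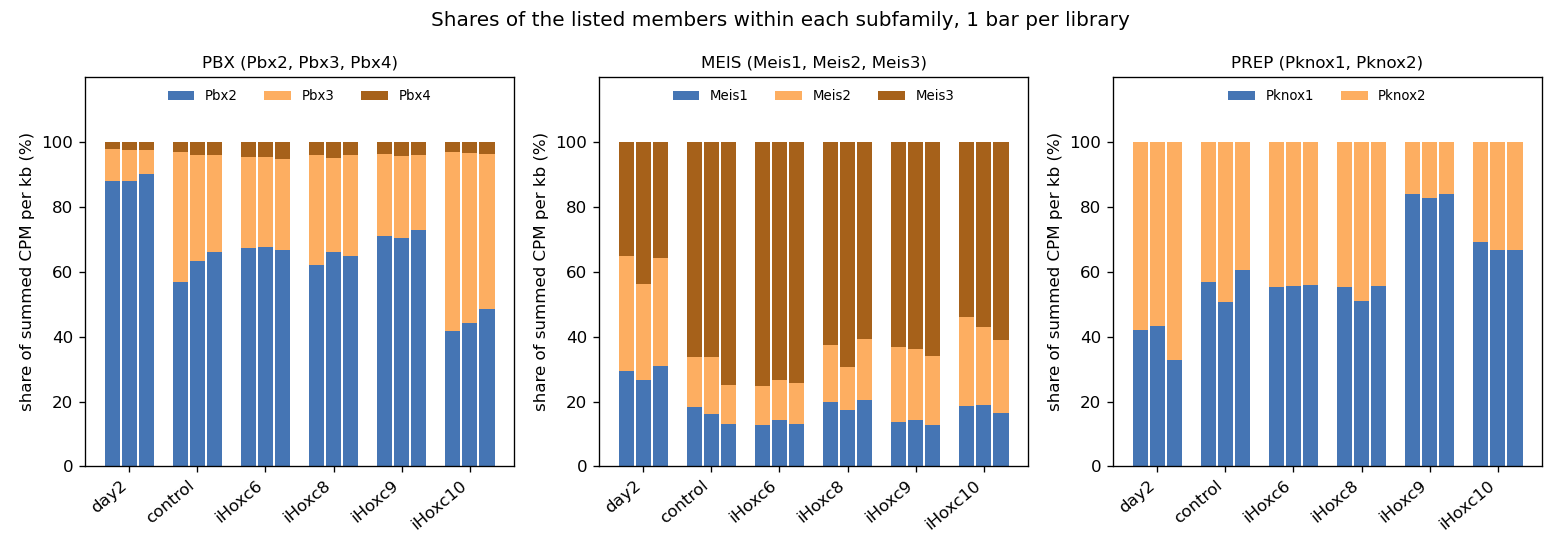
Share of each gene in the summed CPM per kb of exon of the listed members of its subfamily (y axis, percent), with 1 bar for each of 18 libraries grouped by condition (x axis). Colors are genes. Pbx3 takes 51.8% on average in iHoxc10 neurons against 34.3% in control, Meis3 goes from 38.2% on day 2 to 69.2% in control, and Pknox1 takes 83.6% in iHoxc9 neurons.

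Other genes of the same class or pathway were taken as lists. The first held 9 further TALE homeobox genes, Tgif1, Tgif2, Irx1 to Irx6 and Mkx, of which the Tgif genes encode repressors and the Irx genes regulate neural patterning. Of these, 7 passed from day 2 progenitors to control neurons (5 higher, 2 lower), beside 42.4% of all genes. Against control, 2, 2, 5 and 3 of the 9 passed in iHoxc6, iHoxc8, iHoxc9 and iHoxc10 neurons, beside 0.587%, 2.12%, 14.1% and 14.4% of all genes. Irx1 and Irx2 were lower than control in all 4 lines, with means of 55.8 and 15.4 CPM in control and 9.57 and 4.14 CPM in iHoxc9 neurons. Irx3 and Irx5 were lower in iHoxc9 neurons (-1.54 ± 0.15 and -1.28 ± 0.14), and Irx6 was higher in iHoxc9 and iHoxc10 neurons (1.11 ± 0.20 and 1.22 ± 0.20). In contrast to Irx1 and Irx2, none of the 8 cofactor genes passed in more than 2 lines against control.

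The second list held 5 genes for other partners of Hox or PBX proteins, Tshz1, Tshz2, Tshz3, Pbxip1 and Crebbp. From day 2 to control, 2 passed, Tshz2 (2.67 ± 0.16) and Tshz3 (0.62 ± 0.17), both higher, a share of the 5 close to the 42.4% of all genes. Against control, 0 passed in iHoxc6 and iHoxc8 neurons. In iHoxc9 neurons 1 passed, Tshz3, with 57.3 CPM beside 34.9 CPM in control (edgeR, adjusted p = 0.0033), and in iHoxc10 neurons 1 passed, Tshz2, with 84.8 CPM beside 41.7 CPM (edgeR, adjusted p = 3.0e-05). With 5 genes, 1 call is close to the 14.1% and 14.4% of all genes that passed in these lines.

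For each cofactor gene, the 3 genes with the most similar pattern over the 15 day 4 libraries were looked up by Pearson's r of log2(CPM + 1) among 12708 genes with a mean of at least 1 CPM. The libraries share groups and normalization, so r is a description of the pattern. Pbx3 was most similar to Draxin, which encodes a secreted axon guidance protein (r = 0.95, with 94.4 CPM in iHoxc10 and 26.9 CPM in control neurons), Dapk1 and the LIM homeobox gene Lhx1 (r = 0.95 each). Meis2 was most similar to Rab2b and Plch1 (r = 0.96 each) and the zinc finger homeobox gene Zfhx4 (r = 0.95). Pknox2 was most similar to Tmem132e (r = 0.99, with 87.8 CPM in iHoxc9 and 191 CPM in control neurons), the Wnt ligand gene Wnt7a (0.97) and Ifitm3 (0.96). Pknox1 was most similar to the ubiquitin ligase gene Smurf1, Hunk and Prmt8 (r = 0.96 each), and Meis1 was similar to Tiparp (0.95). The 3 genes that moved least on day 4 were Pbx2, Pbx4 and Meis3. Pbx2 was most similar to Pgap2, Cnpy4 and Kctd11, and Pbx4 to Sbf1, 2310061I04Rik and Hps4. Meis3 was most similar to Dcaf4, Pgs1 and Vps72. For these 3 cofactor genes r ranged from 0.88 to 0.94. Among pairs of the 8 genes, r was 0.84 between Pbx3 and Meis1, 0.63 between Pbx3 and Meis2, -0.71 between Pknox1 and Pknox2 and -0.78 between Pbx2 and Meis1.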

How the data were processed

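RNA was measured by bulk polyA RNA-seq in 18 libraries, and per the paper the 3 libraries of a group are independent differentiations. Reads were mapped to mm10 by the authors with STAR (2.7.0c), and featureCounts in Rsubread assigned them to RefSeq genes. They merged genes that share an Entrez identifier and deposited raw read counts per gene, not normalized. The strand setting and a use of the ERCC spike-ins are not given in the sources used here. All columns of counts were used.

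Here, 25275 of 27179 identifiers matched a symbol. Groups were taken from the labels. Counts were tested in R 4.3.3 with edgeR 4.0.16 (TMM factors, quasi-likelihood test). The model held the 18 libraries and their groups, and 15 comparisons were made over the 20944 genes that had 1 count or more in an iHox library. The SE was taken from the F statistic. A gene passed at an adjusted p (Benjamini-Hochberg) under 0.01. The thresholds follow the study, which also asked for a log2 fold change above 2. The code was tested on simulated data. Gene positions are those of RefSeq genes on GRCm38. Levels per kb used the union of GENCODE exons of GRCm38, while the reads were counted on RefSeq exons. Total counts were 24498630 to 33168533 per library. Replicate pairs differed by more than sampling noise, with a chi-square per degree of freedom from 6.78 to 234.

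The genes named are the 8 members, the induced genes, lists of other TALE genes and partners, and for each member the 3 genes most similar to it. The rule for the members uses no measured value, but the members and lists were chosen with earlier results of these data known. For some genes that the rule names, no result is reported here. The alternatives were DESeq2 1.42.0, its size factors within edgeR, filters of at least 10 counts in at least 3 libraries or of 1 count in any library, an adjusted p under 0.05, an added fold threshold of 1 on the log2 scale, separate fits for each pair of groups, a replicate block, the longest transcript for shares, and each library left out in turn. The labels number the libraries of each group from 1 to 3. Same-numbered libraries deviated together, with every correlation over 0.1, in 3 of 15 comparisons: iHoxc8 against iHoxc6, iHoxc9 against iHoxc6 and iHoxc10 against iHoxc9.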

Additional observations from a re-analysis of the deposited data

Results flagged for a closer look

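The differences listed here are those between induced lines that passed edgeR's test (adjusted p under 0.01). In these cases a cofactor gene had different levels in 2 lines given the same Dox treatment. The induced genes had different means as well, from 224 CPM for Hoxc9 in iHoxc9 neurons to 514 CPM for Hoxc6 in iHoxc6 neurons. These are different genes, and their order changes with length. Per kb of exon the means were 92.3 for Hoxc9, 138 for Hoxc8, 214 for Hoxc6 and 225 CPM for Hoxc10, each in its own line. The part of these levels in the cofactor differences was not tested. Of 48 differences 13 passed, beside 2.93% to 11.7% of all genes in the 6 pairs. For Pbx3 the log2 fold changes were 1.33 in iHoxc10 over iHoxc6, 1.22 in iHoxc10 over iHoxc8 and 1.58 in iHoxc10 over iHoxc9 neurons. For Meis1 they were 0.63 in iHoxc10 over iHoxc6 and 0.63 in iHoxc10 over iHoxc9 neurons. For Meis2 they were 1.23 in iHoxc10 over iHoxc6, 0.88 in iHoxc10 over iHoxc8 and 0.84 in iHoxc9 over iHoxc6 neurons. For Pknox1 the value was 0.60 in iHoxc9 over iHoxc8 neurons. For Pknox2 the values were -0.71 in iHoxc10 over iHoxc6, 0.91 in iHoxc10 over iHoxc9, -1.62 in iHoxc9 over iHoxc6 and -1.51 in iHoxc9 over iHoxc8 neurons. The 3 values of iHoxc10 over iHoxc9 neurons lie within a library-name prefix and the other 10 do not, and the part of the prefix was not tested. Outliers within a group could not be tested with 3 libraries each.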

How the results depend on the processing

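Counts of genes that passed kept within 1.5 times under most alternatives. The share of all genes that passed under each alternative is not reported here. The counts below therefore do not show whether the 8 genes stand out from other genes. DESeq2 called 1 of the 8 genes in iHoxc6 neurons against control, where edgeR called 0. At an adjusted p under 0.05, 5 passed in iHoxc9 neurons against control. With a log2 fold change beyond 1 also required, 1 passed in iHoxc9 and 1 in iHoxc10 neurons against control, 3 in control against day 2, 16 of 32 in the induced lines against day 2, 6 of 48 between induced lines and 1 between iHoxc10 and iHoxc9 neurons. In a fit of only the groups compared, 4 passed in control against day 2. Such fits also called 24 of 32 in the induced lines against day 2 and 2 in iHoxc9 neurons against control. These were fewer than the 27 and 3 of the main fit. Between induced lines they called more, 16 of 48 beside 13. The added fold threshold asks for more by construction. Fits of only the groups compared use fewer libraries, and for these fits and for DESeq2 the cause was not tested.

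Without 1 library at a time, 0 passed each time in iHoxc6 and in iHoxc8 neurons against control, between 2 and 4 in iHoxc9 and 2 each time in iHoxc10 neurons, between 6 and 8 in control against day 2, between 27 and 29 in the lines against day 2, between 11 and 13 between lines and between 2 and 3 between iHoxc10 and iHoxc9 neurons. Differences from control that changed sign were near 0. For Pbx2 in iHoxc8 neurons the value was -9.8e-06 with DESeq2's size factors and -0.016 both without the filter and with only the groups compared, and in iHoxc10 neurons it was -0.026 under both of the latter. Over left-out libraries the range was -0.087 to 0.086 for Meis3 in iHoxc6, -0.025 to 0.066 for Pbx2, -0.046 to 0.16 for Meis1 and -0.20 to 0.047 for Meis2 in iHoxc8, -0.0078 to 0.18 for Pbx4 in iHoxc9 and -0.053 to 0.048 for Pbx2 in iHoxc10 neurons.

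With the longest transcript as length, the share of Pbx3 was 14.9% on day 2 and 48.0%, 40.7%, 44.9%, 36.7% and 65.6% in control, iHoxc6, iHoxc8, iHoxc9 and iHoxc10 neurons. In the same order, that of Meis2 was 40.9%, 19.4%, 16.0%, 21.5%, 27.9% and 31.1%, and that of Pknox1 27.3%, 42.3%, 41.8%, 40.3%, 74.5% and 54.5%.

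When the replicate number was added as a block, 0, 0, 3 and 2 of the 8 genes passed in iHoxc6, iHoxc8, iHoxc9 and iHoxc10 neurons against control, 7 in control against day 2, 28 in the lines against day 2 and 13 between lines. The block added Meis2 in iHoxc6 neurons against day 2 (edgeR, adjusted p = 0.0090) and changed no other call. Of 18 libraries, 9 correlated best with a library of their own number. Pbx4 had the fewest counts of the 8 genes, 85 to 236 per library.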
